A study of Homo sapiens with 20 samples.

Results

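Autophagy delivers cytoplasm, organelles and protein aggregates to the lysosome, and the 36 genes described here encode its core machinery and its cargo receptors. They are a list of gene symbols in 3 roles: 14 genes for initiation and membrane supply, 16 for the conjugation of ATG8-family proteins to membrane, and 6 cargo receptors. All 36 were found among the 50775 features of the deposited gene counts, 35 by their own symbol and VMP1 under an older symbol, and all 36 were among the 16698 genes tested.

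Counts of RNA sequencing reads were available from 5 established human cancer cell lines, each with 2 libraries treated with torkinib (PP242) for 72 h and 2 untreated libraries, 20 in all. Torkinib blocks the ATP site of the MTOR kinase and so acts on both MTOR complexes. The treated groups were the liposarcoma line 94T778 at 10 µM, the melanoma lines A375 and SKMEL28 at 4 µM, and the breast cancer lines SKBR3 at 0.8 µM and AU565 at 4 µM. Their controls were untreated cells of the same line, with no culture time and no vehicle named, and the labels name no genetic change in any group. Per the labels each dose was picked to stop the cell cycle with cells still viable, and the design text of the series asks how MTOR inhibition alters genes of DNA repair. Line and dose therefore vary together, except among A375, SKMEL28 and AU565, and each tumour type is represented by 1 or 2 lines.

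Autophagy begins when the ULK1 kinase complex, which holds RB1CC1 (FIP200), is released from inhibition by MTOR complex 1 and activates the class III PI3-kinase complex of PIK3C3, BECN1 and ATG14. ATG9A vesicles, the lipid carriers ATG2A and ATG2B and the PI3P readers WIPI1 and WIPI2 then supply and mark the growing membrane. A ubiquitin-like cascade, in which ATG7 acts as the activating enzyme, ATG3 and ATG10 as conjugating enzymes and the ATG12-ATG5-ATG16L1 complex as the ligase, attaches LC3 and GABARAP proteins to this membrane, where receptors such as SQSTM1 (p62) bind them together with their cargo. MTOR complex 1 is also known to hold the transcription factors TFEB, TFE3 and MITF in the cytoplasm, and these factors can induce autophagy and lysosome genes. Transcript levels do not measure autophagic flux, which is set largely by protein modification and turnover.

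Libraries held 4040023 to 9737903 counted reads, and the 36 genes summed to 1895 to 4247 CPM, a count scaled to the library's total. Levels below are normalised CPM, scaled for library composition as well, listed as replicates 1 and 2. A change is the log2 ratio of torkinib to untreated ± its standard error. The 6 melanocyte markers were all high in SKMEL28, where they summed to 7100 to 10700 CPM. In A375 only SOX10 was, at 601 to 670 CPM, while PMEL, MLANA, TYR, DCT and TYRP1 stood at no more than 7.06 CPM each, in the range of the lines of other origin, where untreated SKBR3 replicate 2 had 22.1 CPM of PMEL. Of the 7 breast markers, which summed to 11200 to 23100 CPM in SKBR3 and AU565 against at most 456 elsewhere, CDH1 was near 0 in both lines, at no more than 0.295 CPM. The 5 genes of the 12q region amplified in liposarcoma summed to 10000 to 11300 CPM in 94T778 against at most 948 elsewhere. Within the breast lines the breast markers summed to 13900 CPM in both torkinib libraries against 22100 and 23100 untreated in SKBR3, and to 11200 and 11800 against 17300 in both untreated libraries in AU565. Genes that mark 94T778 stood in untreated A375 replicate 1 at a median of 2.22% of their 94T778 level, against 0.212% in replicate 2, over 49 genes. The 2 untreated SKBR3 libraries differed from each other more than other replicates did, with a chi-square per gene of 12.2 against 1.37 to 3.37, and their mitochondrial shares were 7.63% and 4.44%. The part of these features in the results below was not tested, except where a value without the library is given. Of markers of other cells, the sum of 4 blood genes was at most 18 CPM. The sum of 3 endothelial genes was 148 to 157 CPM with torkinib against 16.7 to 21 untreated in SKBR3 and 78.7 to 80.8 against 28.6 to 29.2 in AU565, and at most 7.22 in any library of the other 3 lines; in SKBR3 and AU565 it was CDH5 that carried the sum, with VWF at no more than 3.39 CPM and KDR at no more than 0.181 CPM. Melanocyte markers in SKMEL28 summed to 10500 and 10700 CPM with torkinib against 7100 and 7490 untreated. In these bulk samples fewer cells of a kind and less RNA per cell cannot be told apart.

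On the average of the 5 lines, 15 of the 36 genes were called higher with torkinib and 12 lower by edgeR's quasi-likelihood test at an adjusted p under 0.05, which is 41.7% and 33.3% beside 28.4% and 28.1% of all genes tested. Each average weighs the 5 lines alike, and its standard error and p measure the spread between libraries of a group, not between lines. WIPI1 was thus called lower, at -0.44 ± 0.04, although its values ran from -2.19 (AU565) to 0.79 (SKMEL28). The median change of the 36 was 0.08, and that of all genes tested was -0.01. Initiation and membrane supply had 7 of 14 genes higher and 4 lower, and the receptors had 4 of 6 higher and 1 lower. Among the conjugation genes, 11 act in processing or attachment, with ATG12 and the ATG4 proteases among them, and 5 encode the ATG8 family. On the average none of the 11 was called higher and 7 were called lower, whereas 4 of the 5 were called higher and none lower. The split varied by line. The 11 had 4 calls higher and 3 lower (94T778), 0 and 7 (A375, AU565), 2 and 6 (SKMEL28) or 1 and 6 (SKBR3). The 5 had 4 and 0 (94T778), 2 and 1 (A375), 0 and 1 (SKMEL28), 1 and 1 (SKBR3) or 3 and 0 (AU565). The average calls for the ATG8-family genes MAP1LC3B (0.11 ± 0.04) and GABARAP (0.09 ± 0.04) and for the enzyme ATG10 (-0.28 ± 0.10) did not hold. MAP1LC3B lost it without AU565 untreated replicate 1 (0.10, adjusted p = 0.0519), A375 torkinib replicate 1 (0.09, adjusted p = 0.0596), SKBR3 torkinib replicate 2 (0.10, adjusted p = 0.0509), AU565 torkinib replicate 2 (0.09, adjusted p = 0.0753) or the filter on low counts (0.08, adjusted p = 0.188). ATG10 lost it without SKBR3 untreated replicate 2 (-0.24, adjusted p = 0.0566) or AU565 untreated replicate 1 (-0.18, adjusted p = 0.13), and with DESeq2 (-0.27, adjusted p = 0.0541). GABARAP lost it in 13 of the 20 fits that each left out 1 library, without the filter and with DESeq2, with values of 0.06 to 0.10. The other 24 average calls held, that is, kept their direction and their side of the threshold, in every alternative tried: without each library in turn, with DESeq2, with DESeq2's size factors, with limma-voom, without the filter on low counts, with library totals in place of composition scaling, and with replicate number as a block, and for single lines also with the line fitted alone.

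In 94T778, 21 of the 36 genes were called higher and 5 lower (58.3% and 13.9%, beside 23.8% of all genes in each direction), with a median change of 0.27. In A375 the counts were 7 higher and 14 lower (19.4% and 38.9%, beside 18.5% and 24.3%), and the median was -0.14. SKMEL28 had 11 higher and 12 lower (30.6% and 33.3%, beside 20.4% and 23.7%), with a median of 0.03. SKBR3 had 14 higher and 10 lower (38.9% and 27.8%, beside 24.6% and 26.7%), with a median of 0.12. AU565 had 12 in each direction (33.3%, beside 26.9% higher and 28.6% lower), with a median of 0.00. The median of all genes tested lay between -0.02 and 0.00 in the 5 lines. Of these 118 calls 80 held in every alternative tried, among them all 14 rises in SKBR3 but only 11 of the 21 rises in 94T778, and 7 of 14 falls in A375. Without A375 torkinib replicate 1 the falls in A375 numbered 9, and without SKMEL28 untreated replicate 2 those in SKMEL28 numbered 7; without 94T778 untreated replicate 1 the rises in 94T778 numbered 14. Conversely, 14 of the 62 values without a call passed the test in at least 1 alternative, 6 of them in 1 alone; they are named with their genes below, beside AMBRA1 in 94T778 without 94T778 torkinib replicate 2 (adjusted p = 0.0177) and ATG4B in 94T778 without 94T778 torkinib replicate 2 (adjusted p = 0.0439). On the average of lines the same was so of ATG4D with library totals or without A375 untreated replicate 2, SKBR3 untreated replicate 1, AU565 untreated replicate 2, 94T778 torkinib replicate 2, SKBR3 torkinib replicate 2 or AU565 torkinib replicate 1 (adjusted p of 0.0273 to 0.0446), CALCOCO2 with library totals or without SKBR3 untreated replicate 1 or AU565 untreated replicate 2 (adjusted p of 0.0179 to 0.0321), VMP1 without 94T778 untreated replicate 1 or SKBR3 untreated replicate 1 (adjusted p of 0.00971 to 0.0461), ATG16L1 with library totals (adjusted p = 0.0412) and ULK2 without A375 torkinib replicate 2 (adjusted p = 0.0386).

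**Figure D1:**
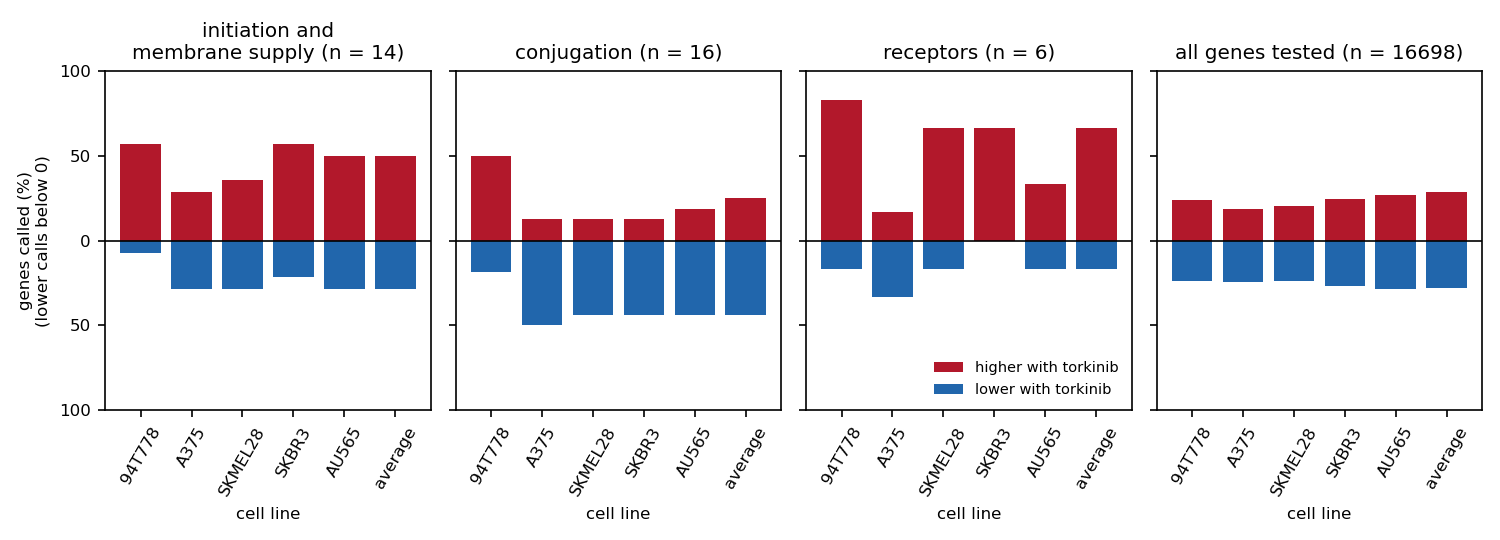
Share of genes called by edgeR at an adjusted p under 0.05 in each line and on the average of lines, as percent of the 14 initiation, 16 conjugation and 6 receptor genes and of all 16698 genes tested. Bars above 0 are genes higher with torkinib and bars below 0 genes lower; on the average, initiation stood at 50% higher and 28.6% lower, conjugation at 25% and 43.8%, receptors at 66.7% and 16.7%.

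A single gene of the 36, ATG14, was called higher in all 5 lines, and a single gene, ATG9A, was called lower in all 5; that is 2.78% each, beside 2.26% and 4.62% of all genes tested. Both patterns held in every alternative. Other genes, such as ULK1 (0.17 to 1.00) and SQSTM1 (0.18 to 1.02), had values above 0 in all 5 lines without a call in each. ATG3 (-0.95 to -0.23) and others lay below 0 in all 5 lines, likewise without a call in each. Calls in opposite directions in different lines were made for 12 genes (33.3%, beside 24.0% of all genes), and for 7 of these, WIPI1, VMP1, ATG5, ATG16L2, GABARAP, GABARAPL1 and CALCOCO2, a rise and a fall each held in every alternative. The remaining genes were called only higher or only lower, except ULK2, which was called in no line with all libraries. The heat map of changes by role shows these patterns side by side.

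**Figure D2:**
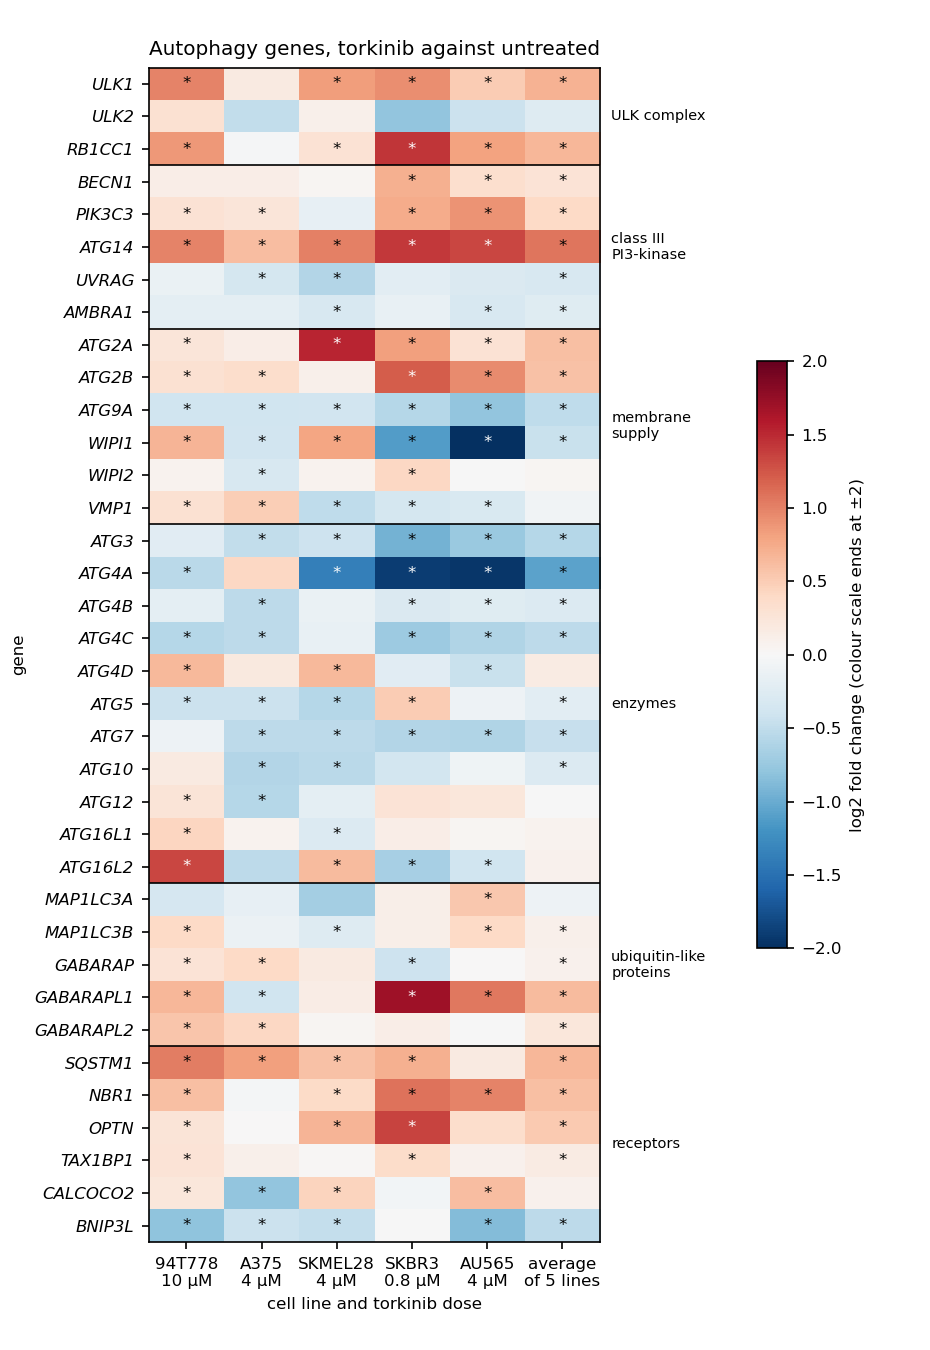
Heat map of log2 fold changes, torkinib over untreated, for the 36 genes (rows, by role) in each line and on the average of lines (columns, with the dose in µM). Red is higher with torkinib, blue lower, the colour scale ends at 2 in either direction, and an asterisk marks an edgeR adjusted p under 0.05; the ATG14 row is red and the ATG9A row blue in all 5 lines, while the WIPI1 row runs from 0.79 in SKMEL28 to -2.19 in AU565.

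ATG14 directs the class III PI3-kinase to sites where autophagosomes form. It stood at 54.3 and 55.9 CPM with torkinib against 27.7 and 27.7 untreated in 94T778, and 28.3 and 28.5 with torkinib against 20.6 and 16.6 untreated in A375. ATG14 levels were 63.2 and 59.2 CPM with torkinib against 29.1 and 31.3 untreated in SKMEL28, and 40.3 and 42.8 with torkinib against 17.1 and 14.2 untreated in SKBR3. ATG14 was at 62.6 and 69.9 CPM with torkinib against 25.4 and 27.3 untreated in AU565. Every torkinib library was above both untreated libraries of its line. The changes were 0.99 ± 0.11 (94T778), 0.62 ± 0.13 (A375), 1.01 ± 0.10 (SKMEL28), 1.42 ± 0.13 (SKBR3) and 1.34 ± 0.10 (AU565), with edgeR adjusted p of 1.65e-13 to 0.000169, and the average of 1.08 ± 0.05 was the highest of the 36 (adjusted p = 8.06e-20). The size of the rise differed between lines (edgeR F test, adjusted p = 0.000996), and among the 3 lines at 4 µM it was smaller in A375 than in AU565, with A375 minus AU565 at -0.72 ± 0.17 (adjusted p = 0.000647). A375 minus SKMEL28 was -0.40 ± 0.17 (adjusted p = 0.0741).

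ATG9A is the scramblase of the vesicles that seed the autophagosome. It was at 54.1 and 56.5 CPM with torkinib against 73.5 and 72.8 untreated in 94T778, and 50.7 and 51.9 with torkinib against 67.2 and 68.2 untreated in A375. ATG9A levels were 87 and 75.6 CPM with torkinib against 110 and 103 untreated in SKMEL28, and 56.2 and 61.3 with torkinib against 84.4 and 89.9 untreated in SKBR3. ATG9A was at 50.4 and 47.8 CPM with torkinib against 87.4 and 81.4 untreated in AU565. The torkinib libraries lay below the untreated ones in each line. ATG9A fell, with changes of -0.40 ± 0.09 (94T778), -0.40 ± 0.09 (A375), -0.38 ± 0.08 (SKMEL28), -0.57 ± 0.09 (SKBR3) and -0.79 ± 0.09 (AU565), with edgeR adjusted p of 3.16e-09 to 0.00071. The fall differed between lines by the edgeR F test (adjusted p = 0.0238), a call that was lost in 3 of 26 alternatives, up to an adjusted p of 0.139 without AU565 torkinib replicate 2. The GENCODE 29 gene models share 38.8% of the exonic bases of ATG9A with another gene on the same strand, AC068946.2, which was not analysed here.

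RefSeq promoters (GRCh38.p14, 250 bases before to 50 after the annotated start) were found for 31 of the 36 genes. The E-box CACGTG, the core of the element bound by TFEB, TFE3 and MITF, was searched on both strands and lay in 2 of these 31 promoters (6.45%), those of ATG14 and ATG3, against 7.43% of 27305 promoters. The longer TCACGTGA, which contains the E-box, lay in 1 (3.23%, ATG3) against 1.04% and the FOXO element GTAAACA in 1 (3.23%, CALCOCO2, 226 bases before the start) against 3.41%. A match describes letters in the window and is not a binding site. The 5 windows shown run from 250 bases before to 30 after the start. They belong to the genes called higher (ATG14) and lower (ATG9A) in all 5 lines and to the enzyme with a pair of E-boxes (ATG3). The other windows are those of WIPI1 and GABARAPL1, with the widest opposite responses of the membrane supply and ATG8 groups. Each is written 5′ to 3′ along the gene's strand, with E-boxes in capitals. They lie at chr14:55411801-55412080, minus strand, for ATG14, chr2:219229607-219229886, minus strand, for ATG9A, chr3:112561933-112562212, minus strand, for ATG3, chr17:68457467-68457746, minus strand, for WIPI1, and chr12:10212627-10212906, plus strand, for GABARAPL1.
ATG14: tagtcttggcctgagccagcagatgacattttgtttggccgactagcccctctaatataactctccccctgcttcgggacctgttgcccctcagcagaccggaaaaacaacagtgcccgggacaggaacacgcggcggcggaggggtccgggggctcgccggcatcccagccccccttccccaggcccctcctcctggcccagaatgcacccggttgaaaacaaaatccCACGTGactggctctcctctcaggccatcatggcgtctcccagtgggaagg
ATG9A: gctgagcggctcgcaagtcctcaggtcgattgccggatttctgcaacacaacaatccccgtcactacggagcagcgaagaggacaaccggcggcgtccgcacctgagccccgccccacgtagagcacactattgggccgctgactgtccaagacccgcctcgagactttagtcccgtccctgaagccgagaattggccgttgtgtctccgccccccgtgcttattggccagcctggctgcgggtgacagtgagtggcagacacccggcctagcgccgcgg
ATG3: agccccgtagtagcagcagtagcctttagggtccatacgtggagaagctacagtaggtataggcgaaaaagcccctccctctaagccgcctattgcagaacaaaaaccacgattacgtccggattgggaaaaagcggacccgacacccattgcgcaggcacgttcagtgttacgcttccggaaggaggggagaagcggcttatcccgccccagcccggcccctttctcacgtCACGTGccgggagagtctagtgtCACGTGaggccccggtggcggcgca
WIPI1: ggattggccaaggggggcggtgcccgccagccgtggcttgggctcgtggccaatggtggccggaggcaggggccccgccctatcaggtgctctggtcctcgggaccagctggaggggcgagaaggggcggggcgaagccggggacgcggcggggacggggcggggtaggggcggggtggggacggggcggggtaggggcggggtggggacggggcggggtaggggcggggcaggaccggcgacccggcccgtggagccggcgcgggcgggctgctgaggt
GABARAPL1: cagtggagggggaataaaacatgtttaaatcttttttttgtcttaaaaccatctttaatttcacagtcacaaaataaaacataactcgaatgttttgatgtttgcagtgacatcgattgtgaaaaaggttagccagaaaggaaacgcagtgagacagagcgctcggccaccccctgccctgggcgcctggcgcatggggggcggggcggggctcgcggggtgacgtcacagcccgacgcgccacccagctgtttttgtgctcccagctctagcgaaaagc

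The E-box of ATG14 begins 21 bases before the start, and those of ATG3 begin 18 bases before and 5 bases after it. ATG14 and ATG3, the 2 genes that carry the E-box, changed by 1.08 and -0.57 on the average of lines. The part of the E-box in either change was not tested.

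ULK1, the kinase that starts autophagy and a direct substrate of MTOR complex 1, rose in 4 lines. It stood at 68.2 and 82.5 CPM with torkinib against 38.8 and 36.7 untreated in 94T778, and 41.4 and 36.9 with torkinib against 33 and 36.8 untreated in A375. ULK1 levels were 48.6 and 45.1 CPM with torkinib against 27.4 and 25.4 untreated in SKMEL28, and 140 and 125 with torkinib against 75 and 64.5 untreated in SKBR3. ULK1 was at 91.1 and 92.4 CPM with torkinib against 66.8 and 62.7 untreated in AU565. The groups did not overlap in any line, but in A375 they were nearly adjacent. ULK1 changed by 1.00 ± 0.11 (94T778), 0.84 ± 0.12 (SKMEL28), 0.93 ± 0.10 (SKBR3) and 0.50 ± 0.10 (AU565), with edgeR adjusted p of 2.04e-10 to 2.94e-05, and the value in A375 was 0.17 ± 0.12 (adjusted p = 0.248). Its paralog ULK2 was not called in any line, with changes of -0.79 in SKBR3 to 0.31 in 94T778 and levels of 0.879 to 7.88 CPM in A375, SKBR3 and AU565. It was called higher in 94T778 with library totals or with the line fitted alone or without SKBR3 untreated replicate 1 or SKBR3 untreated replicate 2 (adjusted p of 0.0134 to 0.0424), and lower in A375 without A375 torkinib replicate 2 (adjusted p = 0.0152).

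RB1CC1, the scaffold of the ULK1 complex, stood at 218 and 202 CPM with torkinib against 116 and 115 untreated in 94T778, and 118 and 128 with torkinib against 126 and 122 untreated in A375. RB1CC1 levels were 148 and 140 CPM with torkinib against 112 and 123 untreated in SKMEL28, and 97.8 and 122 with torkinib against 37.7 and 44 untreated in SKBR3. RB1CC1 was at 145 and 127 CPM with torkinib against 74.1 and 81.8 untreated in AU565. The groups were apart in 4 lines and overlapped in A375, where the change was -0.02 ± 0.09. RB1CC1 rose by 0.86 ± 0.09 (94T778), 0.29 ± 0.09 (SKMEL28), 1.43 ± 0.11 (SKBR3) and 0.80 ± 0.10 (AU565), with edgeR adjusted p of 8.83e-14 to 0.0096. Its call was lost in SKMEL28 without untreated replicate 1 (0.23, adjusted p = 0.114) or torkinib replicate 1 (0.25, adjusted p = 0.093). The value in SKBR3, at the lowest dose, was the highest of the 5, and the responses differed between lines (edgeR F test, adjusted p = 3.61e-10).

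**Figure D3:**
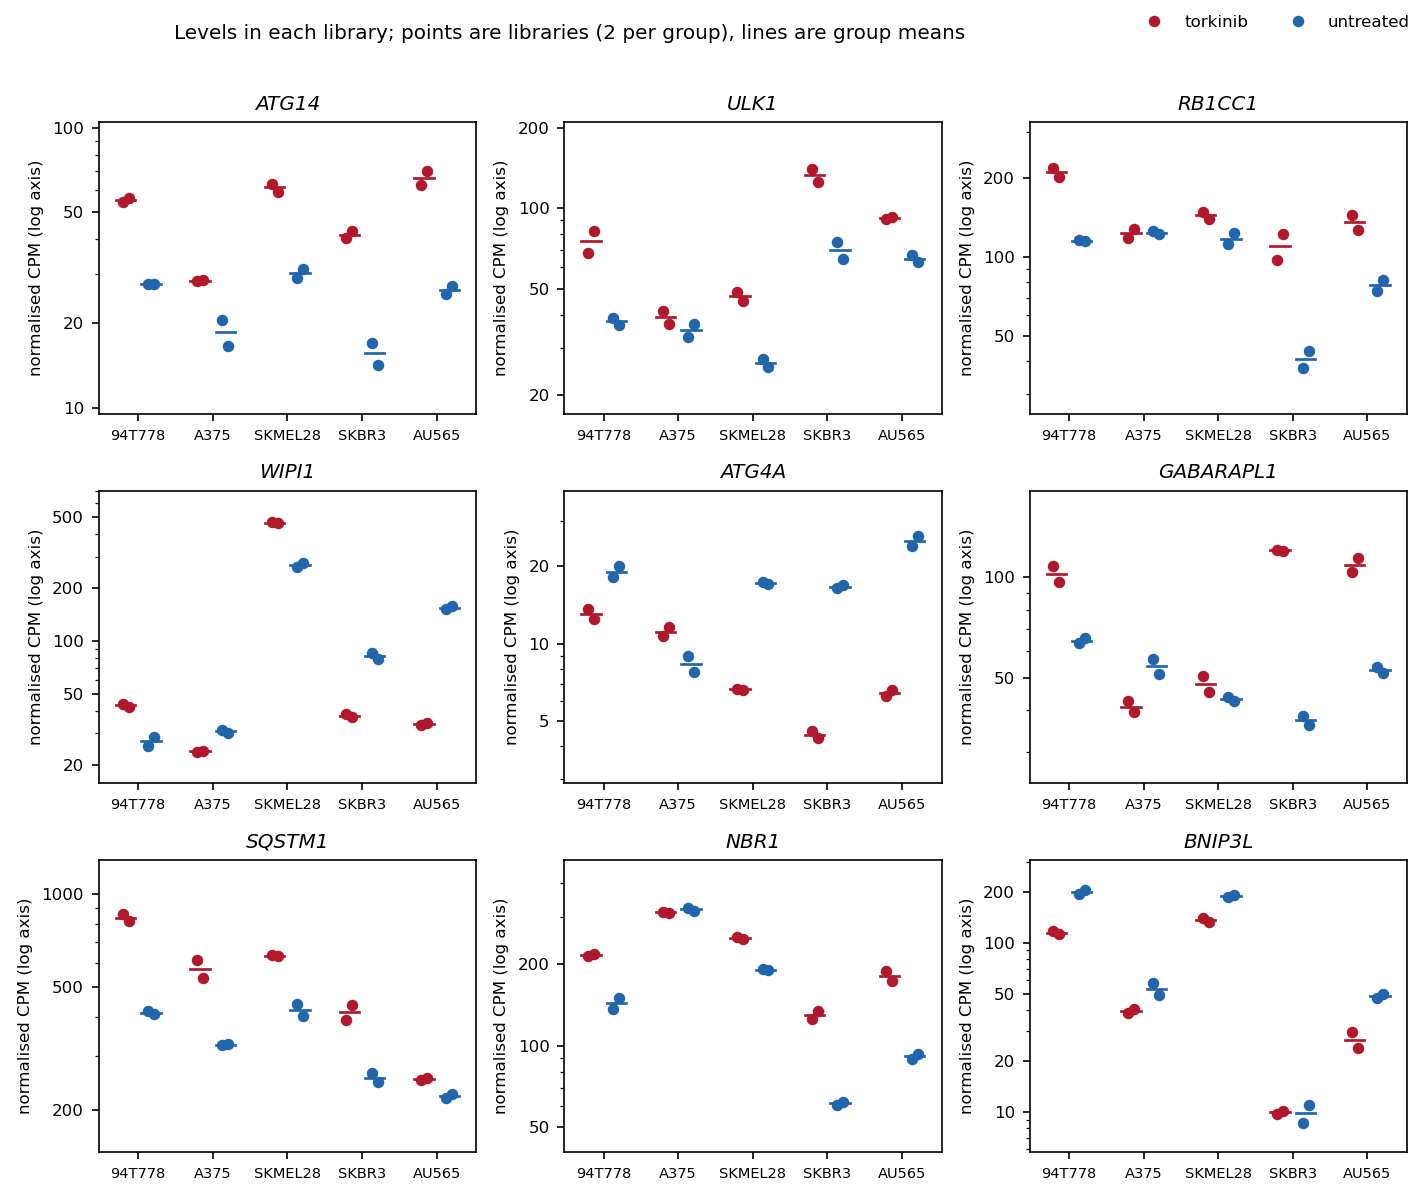
Level of 9 of the genes in every library, as normalised CPM on a log axis that differs between panels, by line; points are libraries, red torkinib and blue untreated, and short lines are means of 2 libraries. ATG14 is higher with torkinib in all 5 lines, WIPI1 is higher in 94T778 and SKMEL28 and lower in SKBR3 and AU565, and ATG4A is lower in 4 lines.

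Of the other class III PI3-kinase genes, the lipid kinase PIK3C3 (VPS34) was called higher in 4 lines and BECN1, its regulatory partner, in 2. PIK3C3 rose by 0.28 ± 0.10 (94T778), 0.24 ± 0.09 (A375), 0.74 ± 0.16 (SKBR3) and 0.90 ± 0.13 (AU565), with edgeR adjusted p of 1.63e-07 to 0.0246, and was at -0.17 ± 0.09 in SKMEL28. Its call was lost in 94T778 without untreated replicate 1 (0.26, adjusted p = 0.106), untreated replicate 2 (0.30, adjusted p = 0.0558) or torkinib replicate 1 (0.21, adjusted p = 0.179), and also without the filter (adjusted p = 0.0952) or with DESeq2 (adjusted p = 0.085). It was also lost in A375 without untreated replicate 1 (0.25, adjusted p = 0.0741), untreated replicate 2 (0.22, adjusted p = 0.133) or torkinib replicate 2 (0.16, adjusted p = 0.254), and also without the filter (adjusted p = 0.172) or with DESeq2 (adjusted p = 0.0863). BECN1 rose by 0.71 ± 0.12 (SKBR3) and 0.34 ± 0.11 (AU565), with adjusted p of 5.38e-06 to 0.00717, and the call was lost in AU565 without untreated replicate 2 (0.28, adjusted p = 0.0755). UVRAG, which directs the kinase to endosomes in a complex separate from ATG14, and AMBRA1, a scaffold that brings BECN1 to ULK1, went the other way. Both fell on the average of lines, UVRAG by 0.31 ± 0.06 and AMBRA1 by 0.23 ± 0.05 (edgeR adjusted p = 2.53e-05 and 0.000211), and no difference between lines was called for either (adjusted p = 0.216 and 0.817). Within lines UVRAG was called lower in A375 and SKMEL28 and AMBRA1 in SKMEL28 and AU565, and none of the 4 calls held: that of UVRAG was lost in A375 without untreated replicate 1 (-0.29, adjusted p = 0.115) or torkinib replicate 1 (-0.31, adjusted p = 0.128), and also with DESeq2 (adjusted p = 0.0578), and in SKMEL28 without untreated replicate 2 (-0.26, adjusted p = 0.247). That of AMBRA1 was lost in SKMEL28 without any 1 of its 4 libraries, with changes of -0.36 to -0.27 and adjusted p of 0.0507 to 0.225, and also without the filter (adjusted p = 0.0701) or with DESeq2 (adjusted p = 0.065). It was lost as well in AU565 without untreated replicate 1 (-0.24, adjusted p = 0.175) or torkinib replicate 2 (-0.27, adjusted p = 0.162), and also with DESeq2 (adjusted p = 0.0698). UVRAG in AU565, at -0.29 ± 0.14, was called lower without the filter or with the line fitted alone or without SKMEL28 untreated replicate 1, SKMEL28 untreated replicate 2, SKBR3 untreated replicate 1 or SKBR3 untreated replicate 2 (adjusted p of 0.0417 to 0.0472).

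The lipid transfer proteins ATG2A and ATG2B, which feed the growing membrane, rose in partly different lines. ATG2A was at 55.1 and 57.8 CPM with torkinib against 48.4 and 47.6 untreated in 94T778, and 43.7 and 43.8 with torkinib against 38.5 and 40.9 untreated in A375. ATG2A levels were 111 and 109 CPM with torkinib against 42 and 35.7 untreated in SKMEL28, and 74.9 and 67.2 with torkinib against 41.4 and 38.7 untreated in SKBR3. ATG2A was at 62 and 68.1 CPM with torkinib against 54.2 and 51.9 untreated in AU565. Its groups were apart in every line, by far most in SKMEL28. ATG2A rose by 0.24 ± 0.10 (94T778), 1.52 ± 0.09 (SKMEL28), 0.83 ± 0.10 (SKBR3) and 0.30 ± 0.09 (AU565), with edgeR adjusted p of 2.13e-16 to 0.0435. Its call in 94T778 was lost in 12 of the 20 fits that left out 1 library, those without each of the 4 of that line (0.20 to 0.27) and those without 8 of the 16 of other lines, and also with DESeq2's size factors, without the filter, with DESeq2 or with the replicate block (adjusted p of 0.0504 to 0.186). It was lost in AU565 without untreated replicate 2 (0.26, adjusted p = 0.0612) or torkinib replicate 2 (0.21, adjusted p = 0.153), and also without the filter (adjusted p = 0.0863). ATG2B rose by 0.31 ± 0.10 (94T778), 0.36 ± 0.11 (A375), 1.21 ± 0.13 (SKBR3) and 0.95 ± 0.10 (AU565), with adjusted p of 1.8e-10 to 0.0112, and was at 0.10 ± 0.11 in SKMEL28, where ATG2A had its largest rise. The ATG2B call was lost in 94T778 without untreated replicate 1 (0.27, adjusted p = 0.116) or torkinib replicate 2 (0.30, adjusted p = 0.0593), and also with DESeq2 (adjusted p = 0.0536) and in A375 without untreated replicate 1 (0.33, adjusted p = 0.0511) or torkinib replicate 2 (0.21, adjusted p = 0.195). The responses of both genes differed between lines by the edgeR F test (adjusted p = 4.56e-11 for ATG2A and 4.25e-07 for ATG2B).

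WIPI1, which binds PI3P on the forming membrane, had the widest span of responses of the 36 genes, 2.97 on the log2 scale. It was at 44 and 42.6 CPM with torkinib against 25.6 and 28.6 untreated in 94T778, and 23.5 and 24 with torkinib against 31.4 and 30.3 untreated in A375. WIPI1 levels were 469 and 463 CPM with torkinib against 261 and 277 untreated in SKMEL28, and 38.7 and 37 with torkinib against 85.3 and 78.6 untreated in SKBR3. WIPI1 was at 33.7 and 34.3 CPM with torkinib against 151 and 158 untreated in AU565. The torkinib libraries were above the untreated ones in 94T778 and SKMEL28 and below them in the other 3 lines. WIPI1 rose by 0.67 ± 0.10 (94T778) and 0.79 ± 0.07 (SKMEL28) and fell, with changes of -0.38 ± 0.11 (A375), -1.11 ± 0.10 (SKBR3) and -2.19 ± 0.09 (AU565), with edgeR adjusted p of 1.7e-21 to 0.00656. The fall was lost in A375 without torkinib replicate 1 (-0.36, adjusted p = 0.0714). Among the 3 lines at 4 µM, the response in SKMEL28 exceeded that in AU565 by 2.98 ± 0.11 (adjusted p = 2.21e-21), and A375 minus SKMEL28 was -1.17 ± 0.13 (adjusted p = 8.95e-09).

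WIPI1 overlaps ARSG, a sulfatase gene on the opposite strand, over 24.3% of its exonic bases (GENCODE 29), and whether reads were counted by strand is not given in the sources used here. ARSG rose by 3.50 in 94T778 and 1.11 in SKMEL28 (edgeR adjusted p = 9.92e-19 and 1.13e-12), the lines in which WIPI1 rose, and was not called in the other 3 lines, where it changed by 0.09 to 0.34. ARSG levels were 42.3 and 36.5 CPM with torkinib against 3.24 and 3.7 untreated in 94T778, and 114 and 109 CPM with torkinib against 55.3 and 48.8 untreated in SKMEL28. The part of ARSG reads in the WIPI1 counts was not tested.

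VMP1, an ER scramblase needed to form autophagosomes, and WIPI2, the reader that recruits ATG16L1, also moved both ways. VMP1 was at 206 and 204 CPM with torkinib against 157 and 174 untreated in 94T778, and 168 and 167 with torkinib against 125 and 113 untreated in A375. VMP1 levels were 270 and 268 CPM with torkinib against 378 and 392 untreated in SKMEL28, and 57.2 and 56 with torkinib against 66.2 and 78.2 untreated in SKBR3. VMP1 was at 56.3 and 54.9 CPM with torkinib against 67.5 and 69.2 untreated in AU565. Torkinib libraries were above untreated ones in 94T778 and A375 and below them in SKMEL28, SKBR3 and AU565. VMP1 rose by 0.30 ± 0.08 (94T778) and 0.49 ± 0.08 (A375) and fell, with changes of -0.52 ± 0.07 (SKMEL28), -0.36 ± 0.10 (SKBR3) and -0.30 ± 0.09 (AU565), with edgeR adjusted p of 3.67e-07 to 0.00693. The rise in A375 and the fall in SKMEL28 held, and the other 3 calls were each lost when 1 library was left out: in 94T778 without untreated replicate 1 (0.23, adjusted p = 0.0659), in SKBR3 without untreated replicate 2 (-0.23, adjusted p = 0.087), and in AU565 without torkinib replicate 2 (-0.29, adjusted p = 0.055). Between the 2 melanoma lines at 4 µM the difference, A375 minus SKMEL28, was 1.01 ± 0.11 (adjusted p = 3.9e-09), in the direction opposite to that of WIPI1.

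WIPI2 stood at 148 and 160 CPM with torkinib against 149 and 144 untreated in 94T778, and 65.2 and 73.1 with torkinib against 87.7 and 84.8 untreated in A375. WIPI2 levels were 63.4 and 56.8 CPM with torkinib against 55.1 and 59.3 untreated in SKMEL28, and 118 and 128 with torkinib against 95.2 and 89.9 untreated in SKBR3. WIPI2 was at 93.8 and 92.7 CPM with torkinib against 93.2 and 94.4 untreated in AU565. Its groups overlapped in 94T778, SKMEL28 and AU565 and were apart in A375 and SKBR3. WIPI2 fell by 0.32 ± 0.09 in A375 and rose by 0.42 ± 0.09 in SKBR3 (edgeR adjusted p = 0.00325 and 8.63e-05). The fall was lost in A375 without torkinib replicate 1 (-0.24, adjusted p = 0.113).

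Among the enzymes of conjugation ATG4A, a cysteine protease that trims ATG8-family proteins before conjugation and removes them from membrane afterwards, had the lowest average change, -1.07 ± 0.08 (edgeR adjusted p = 6.45e-15). ATG4A was at 13.6 and 12.5 CPM with torkinib against 18.1 and 20 untreated in 94T778, and 10.7 and 11.6 with torkinib against 8.97 and 7.76 untreated in A375. ATG4A levels were 6.66 and 6.64 CPM with torkinib against 17.4 and 17 untreated in SKMEL28, and 4.57 and 4.31 with torkinib against 16.4 and 16.9 untreated in SKBR3. ATG4A was at 6.28 and 6.59 CPM with torkinib against 24 and 26.1 untreated in AU565. The torkinib libraries were below the untreated ones in 4 lines, and above them in A375. ATG4A fell, with changes of -0.55 ± 0.14 (94T778), -1.36 ± 0.16 (SKMEL28), -1.91 ± 0.20 (SKBR3) and -1.95 ± 0.16 (AU565), with edgeR adjusted p of 5.05e-13 to 0.00177, and these calls held in every alternative. In A375 the value was 0.41 ± 0.18 (adjusted p = 0.0603), called higher with library totals (adjusted p = 0.0295), and at the same dose A375 differed from SKMEL28 by 1.77 ± 0.24 (adjusted p = 3.37e-07) and from AU565 by 2.36 ± 0.24 (adjusted p = 5.67e-10).

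The related proteases ATG4B and ATG4C were called lower with smaller values. ATG4B was called lower in 3 lines with changes of -0.53 ± 0.12 (A375), -0.28 ± 0.10 (SKBR3) and -0.24 ± 0.10 (AU565), with edgeR adjusted p of 0.000441 to 0.0461, and only the call in A375 held. It was lost in SKBR3 without untreated replicate 1 (-0.21, adjusted p = 0.0876) or torkinib replicate 2 (-0.27, adjusted p = 0.077), and also with DESeq2 (adjusted p = 0.0582) or with the line fitted alone (adjusted p = 0.08). It was lost too in AU565 without untreated replicate 1 (-0.16, adjusted p = 0.317), torkinib replicate 1 (-0.22, adjusted p = 0.164) or torkinib replicate 2 (-0.28, adjusted p = 0.0994), and also with DESeq2's size factors (adjusted p = 0.0573), with DESeq2 (adjusted p = 0.106), with limma-voom (adjusted p = 0.0571), with the replicate block (adjusted p = 0.0533) or with library totals (adjusted p = 0.0684). ATG4C was called lower in 4 lines with changes of -0.58 ± 0.16 (94T778), -0.52 ± 0.17 (A375), -0.73 ± 0.19 (SKBR3) and -0.61 ± 0.15 (AU565), with adjusted p of 0.000763 to 0.011, and only the call in AU565 held. It was lost in 94T778 without untreated replicate 1 (-0.40, adjusted p = 0.125) or torkinib replicate 1 (-0.40, adjusted p = 0.0843), in A375 without untreated replicate 2 (-0.46, adjusted p = 0.071) or torkinib replicate 1 (-0.44, adjusted p = 0.129), and in SKBR3 without untreated replicate 2 (-0.39, adjusted p = 0.172).

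ATG4D, the fourth member, whose product is also found at mitochondria, was called in both directions. It was at 13.9 and 11.3 CPM with torkinib against 8.89 and 7.23 untreated in 94T778, and 20.6 and 19.4 with torkinib against 15.7 and 19.1 untreated in A375. ATG4D levels were 20.1 and 19.2 CPM with torkinib against 13.3 and 12.1 untreated in SKMEL28, and 18.3 and 14.7 with torkinib against 21 and 17.6 untreated in SKBR3. ATG4D was at 11.4 and 15.1 CPM with torkinib against 16.7 and 20.2 untreated in AU565. Its groups overlapped in SKBR3 and were apart elsewhere, with torkinib above untreated in 94T778, A375 and SKMEL28 and below it in AU565. ATG4D rose by 0.65 ± 0.20 (94T778) and 0.65 ± 0.16 (SKMEL28) and fell by 0.44 ± 0.17 in AU565, with edgeR adjusted p of 0.00119 to 0.0221. Only the call in SKMEL28 held; the others were lost in 94T778 without untreated replicate 2 (0.50, adjusted p = 0.114) or torkinib replicate 1 (0.49, adjusted p = 0.101) and in AU565 without untreated replicate 2 (-0.32, adjusted p = 0.181) or torkinib replicate 1 (-0.28, adjusted p = 0.248), and also with DESeq2 (adjusted p = 0.0633). ATG4D shares 15.0% of its exonic bases with KRI1 on the opposite strand, which was called higher in 94T778 (0.39, adjusted p = 0.00966) and lower in SKBR3 (-0.38, adjusted p = 0.00655).

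ATG3, the conjugating enzyme that transfers ATG8-family proteins to lipid, was lower with torkinib in all lines and called in 4. It stood at 42.7 and 40.3 CPM with torkinib against 48.2 and 49.4 untreated in 94T778, and 42.2 and 37.9 with torkinib against 57.1 and 56 untreated in A375. ATG3 levels were 55.8 and 56.2 CPM with torkinib against 65.9 and 81.4 untreated in SKMEL28, and 36.8 and 39.9 with torkinib against 70.1 and 78 untreated in SKBR3. ATG3 was at 41.5 and 36.9 CPM with torkinib against 65.9 and 65 untreated in AU565. No torkinib library reached the untreated libraries of its line. ATG3 fell, with changes of -0.49 ± 0.11 (A375), -0.41 ± 0.09 (SKMEL28), -0.95 ± 0.11 (SKBR3) and -0.75 ± 0.10 (AU565), with edgeR adjusted p of 1.12e-09 to 0.000449, and in 94T778 the value was -0.23 ± 0.11 (adjusted p = 0.0674), which was called lower with DESeq2's size factors or with the line fitted alone or without SKBR3 untreated replicate 1 or SKBR3 untreated replicate 2 (adjusted p of 0.0354 to 0.0442). The call was lost in SKMEL28 without untreated replicate 2 (-0.23, adjusted p = 0.136).

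ATG7, the activating enzyme shared by both conjugation branches, was at 38 and 35.7 CPM with torkinib against 37.9 and 41.2 untreated in 94T778, and 20 and 20.2 with torkinib against 30.3 and 27.2 untreated in A375. ATG7 levels were 19.5 and 19.2 CPM with torkinib against 28.2 and 27.8 untreated in SKMEL28, and 21.1 and 17.5 with torkinib against 28.9 and 28.9 untreated in SKBR3. ATG7 was at 20.2 and 21.1 CPM with torkinib against 31.1 and 31.7 untreated in AU565. The groups overlapped in 94T778 and were apart in the other 4 lines, with similar sizes. ATG7 fell, with changes of -0.52 ± 0.12 (A375), -0.53 ± 0.12 (SKMEL28), -0.59 ± 0.13 (SKBR3) and -0.60 ± 0.12 (AU565), with edgeR adjusted p of 4.83e-05 to 0.000822, and these calls held in every alternative. Among A375, SKMEL28 and AU565 no difference in the ATG7 response was called (edgeR F test, adjusted p = 0.927). ATG7 shares 18.1% of its exonic bases with VGLL4 on the opposite strand, and VGLL4 was called higher in all 5 lines, by 0.29 to 1.26, against the direction of ATG7.

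ATG10, the conjugating enzyme of ATG12, was called lower in A375 and SKMEL28, with changes of -0.58 ± 0.21 (A375) and -0.54 ± 0.17 (SKMEL28), with edgeR adjusted p of 0.0104 to 0.0259, at levels of 4.63 to 17.7 CPM over all libraries. Neither call held: it was lost in A375 without any 1 of its 4 libraries, with changes of -0.67 to -0.52 and adjusted p of 0.0504 to 0.117, and also with DESeq2 (adjusted p = 0.0798). It was lost too in SKMEL28 without untreated replicate 2 (-0.36, adjusted p = 0.265) or torkinib replicate 1 (-0.42, adjusted p = 0.136), and also with DESeq2 (adjusted p = 0.0667).

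The genes of the ligase complex, ATG5, ATG12, ATG16L1 and ATG16L2, were each called in both directions. ATG5, the subunit joined covalently to ATG12, stood at 39 and 38.3 CPM with torkinib against 55 and 48.8 untreated in 94T778, and 20.9 and 19.6 with torkinib against 27 and 27.9 untreated in A375. ATG5 levels were 27.5 and 30.2 CPM with torkinib against 45.6 and 40.9 untreated in SKMEL28, and 49.5 and 46.9 with torkinib against 28.9 and 38.4 untreated in SKBR3. ATG5 was at 44.9 and 44.4 CPM with torkinib against 47.8 and 48.3 untreated in AU565. Torkinib libraries were above untreated ones in SKBR3 alone. ATG5 fell, with changes of -0.42 ± 0.11 (94T778), -0.44 ± 0.13 (A375) and -0.57 ± 0.11 (SKMEL28) and rose by 0.50 ± 0.12 in SKBR3, with edgeR adjusted p of 6.04e-05 to 0.00774, while AU565, the other breast line, at 4 µM, was at -0.11 ± 0.11. The fall was lost in A375 without torkinib replicate 2 (-0.40, adjusted p = 0.0526).

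ATG12 was at 76.7 and 70.2 CPM with torkinib against 60.5 and 62.1 untreated in 94T778, and 59.6 and 54.4 with torkinib against 86 and 83.8 untreated in A375. ATG12 levels were 69.7 and 58.5 CPM with torkinib against 73.5 and 73.9 untreated in SKMEL28, and 28.8 and 27.4 with torkinib against 21 and 25.2 untreated in SKBR3. ATG12 was at 34.8 and 31.6 CPM with torkinib against 28.6 and 28.1 untreated in AU565. Its groups were apart in every line, with torkinib lower in A375 and SKMEL28 only. ATG12 rose by 0.26 ± 0.09 in 94T778 and fell by 0.57 ± 0.09 in A375 (edgeR adjusted p = 0.0212 and 5.67e-06). The rise was lost in 94T778 without untreated replicate 1 (0.24, adjusted p = 0.122), untreated replicate 2 (0.28, adjusted p = 0.0697) or torkinib replicate 1 (0.20, adjusted p = 0.182), and also without the filter (adjusted p = 0.088) or with DESeq2 (adjusted p = 0.0819). ATG12 was called lower in SKMEL28 with library totals or with the line fitted alone or without SKBR3 untreated replicate 1 or SKMEL28 torkinib replicate 1 (adjusted p of 0.0217 to 0.0474), and higher in SKBR3 without SKBR3 untreated replicate 2 (adjusted p = 0.032) and in AU565 with the line fitted alone (adjusted p = 0.038).

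ATG16L1, which places the ligase on membrane, was at 47.4 and 47.9 CPM with torkinib against 35.9 and 34.5 untreated in 94T778, and 43.3 and 42.6 with torkinib against 42.6 and 39.5 untreated in A375. ATG16L1 levels were 56.7 and 62 CPM with torkinib against 76.3 and 68.2 untreated in SKMEL28, and 48.7 and 44.4 with torkinib against 39.9 and 44.7 untreated in SKBR3. ATG16L1 was at 49.1 and 46.4 CPM with torkinib against 45.6 and 47.5 untreated in AU565. Its groups were apart only in 94T778, where it rose by 0.44 ± 0.10, and in SKMEL28, where it fell by 0.28 ± 0.09 (edgeR adjusted p = 0.000586 and 0.0108). The fall was lost in SKMEL28 without untreated replicate 1 (-0.20, adjusted p = 0.146) or torkinib replicate 1 (-0.21, adjusted p = 0.164), and also without the filter (adjusted p = 0.0514).

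ATG16L2, a paralog whose part in canonical autophagy is less clear, moved more widely. It stood at 51.3 and 50.7 CPM with torkinib against 18.1 and 22.4 untreated in 94T778, and 8.23 and 6.96 with torkinib against 10.8 and 11.2 untreated in A375. ATG16L2 levels were 21.1 and 20.9 CPM with torkinib against 11.9 and 14.6 untreated in SKMEL28, and 60.4 and 53.1 with torkinib against 108 and 72 untreated in SKBR3. ATG16L2 was at 33.1 and 37.9 CPM with torkinib against 50.4 and 43 untreated in AU565. The groups did not overlap in any line, although the 2 untreated SKBR3 libraries lay far apart. ATG16L2 rose by 1.33 ± 0.15 (94T778) and 0.63 ± 0.18 (SKMEL28) and fell, with changes of -0.66 ± 0.12 (SKBR3) and -0.39 ± 0.14 (AU565), with edgeR adjusted p of 2.99e-09 to 0.0146. The fall was lost in AU565 without untreated replicate 1 (-0.27, adjusted p = 0.196) or torkinib replicate 1 (-0.31, adjusted p = 0.131), and also with DESeq2 (adjusted p = 0.0561). In A375 the value of -0.52 ± 0.24 (adjusted p = 0.0825) was called lower without the filter, with the replicate block or with the line fitted alone or without SKBR3 untreated replicate 1 or SKBR3 untreated replicate 2 (adjusted p of 0.0251 to 0.0429).

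GABARAPL1 had the largest average rise of the ATG8-family genes, whose products mark the autophagosome and bind receptors. It was at 108 and 96.6 CPM with torkinib against 63.4 and 65.6 untreated in 94T778, and 42.5 and 39.4 with torkinib against 56.9 and 51.3 untreated in A375. GABARAPL1 levels were 50.6 and 45.2 CPM with torkinib against 43.8 and 42.6 untreated in SKMEL28, and 121 and 120 with torkinib against 38.4 and 36.2 untreated in SKBR3. GABARAPL1 was at 104 and 114 CPM with torkinib against 53.8 and 51.7 untreated in AU565. Torkinib libraries were below untreated ones in A375 alone. GABARAPL1 rose by 0.67 ± 0.09 (94T778), 1.69 ± 0.10 (SKBR3) and 1.05 ± 0.09 (AU565) and fell by 0.39 ± 0.10 in A375, with edgeR adjusted p of 3.2e-17 to 0.00176, and each of these calls held. In SKMEL28 the value was 0.16 ± 0.10 (adjusted p = 0.219). At 4 µM the response in A375 was below that in AU565, with A375 minus AU565 at -1.44 ± 0.14 (adjusted p = 5.88e-11).

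GABARAP and GABARAPL2 were called higher along with GABARAPL1 in 94T778 but did not follow it in A375, SKBR3 and AU565. GABARAP was at 181 and 206 CPM with torkinib against 164 and 154 untreated in 94T778, and 169 and 156 with torkinib against 127 and 119 untreated in A375. GABARAP levels were 138 and 141 CPM with torkinib against 126 and 120 untreated in SKMEL28, and 117 and 97.3 with torkinib against 144 and 140 untreated in SKBR3. GABARAP was at 114 and 123 CPM with torkinib against 117 and 120 untreated in AU565. The groups overlapped in AU565, and torkinib was lower in SKBR3 and higher in the other 3 lines. GABARAP rose by 0.28 ± 0.08 (94T778) and 0.40 ± 0.09 (A375) and fell by 0.41 ± 0.09 in SKBR3, where GABARAPL1 had its largest rise, with edgeR adjusted p of 0.000192 to 0.00535. The rise was lost in 94T778 without untreated replicate 2 (0.23, adjusted p = 0.0851) or torkinib replicate 2 (0.18, adjusted p = 0.15). In SKMEL28 the value of 0.18 ± 0.09 (adjusted p = 0.0902) was called higher with the line fitted alone or without SKBR3 untreated replicate 1 or SKBR3 untreated replicate 2 (adjusted p of 0.00211 to 0.0444). GABARAP shares 30.5% of its exonic bases with AC120057.2 on the same strand, which was not analysed here. GABARAPL2 rose by 0.56 ± 0.09 (94T778) and 0.41 ± 0.09 (A375), with adjusted p of 3.53e-06 to 0.00032, calls that held, and its values in the other 3 lines were -0.01 to 0.14.

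MAP1LC3B, which encodes the LC3B protein used as the standard marker of autophagosomes, stood at 212 and 206 CPM with torkinib against 163 and 153 untreated in 94T778, and 108 and 99.3 with torkinib against 116 and 111 untreated in A375. MAP1LC3B levels were 92.8 and 95.6 CPM with torkinib against 109 and 115 untreated in SKMEL28, and 64 and 65.6 with torkinib against 57.9 and 61.9 untreated in SKBR3. MAP1LC3B was at 48.1 and 52.7 CPM with torkinib against 37.5 and 39.4 untreated in AU565. The groups were apart in every line, with torkinib lower in both melanoma lines. MAP1LC3B rose by 0.40 ± 0.07 (94T778) and 0.40 ± 0.10 (AU565) and fell by 0.26 ± 0.08 in SKMEL28, with edgeR adjusted p of 2.52e-05 to 0.0081. The fall was lost in SKMEL28 without untreated replicate 2 (-0.21, adjusted p = 0.125) or torkinib replicate 1 (-0.23, adjusted p = 0.0829). MAP1LC3B has a near-identical copy, MAP1LC3B2, so its counts are uncertain; MAP1LC3B2 was called in no line. MAP1LC3A had a single read in each of the 94T778 groups and no average is given for it. It was called in AU565 only, where it rose by 0.54 ± 0.17 (adjusted p = 0.00605) with 25.7 and 20.5 CPM with torkinib against 17.3 and 13.7 untreated, and this call was lost in AU565 without untreated replicate 2 (0.39, adjusted p = 0.0986) or torkinib replicate 1 (0.38, adjusted p = 0.125).

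SQSTM1, the receptor that links ubiquitylated cargo to LC3 and is itself degraded by autophagy, had the smallest p among the receptors on the average of lines, where it rose by 0.66 ± 0.03 (edgeR adjusted p = 7.35e-19). It was at 861 and 819 CPM with torkinib against 418 and 410 untreated in 94T778, and 613 and 535 with torkinib against 324 and 328 untreated in A375. SQSTM1 levels were 634 and 632 CPM with torkinib against 440 and 405 untreated in SKMEL28, and 392 and 439 with torkinib against 263 and 246 untreated in SKBR3. SQSTM1 was at 250 and 254 CPM with torkinib against 219 and 226 untreated in AU565. All torkinib libraries were above the untreated ones of their line, in AU565 by a small margin. SQSTM1 rose by 1.02 ± 0.08 (94T778), 0.82 ± 0.08 (A375), 0.58 ± 0.08 (SKMEL28) and 0.71 ± 0.08 (SKBR3), with edgeR adjusted p of 8e-14 to 5.03e-08, and in AU565 the value was 0.18 ± 0.08 (adjusted p = 0.0514). That value lay close to the threshold and was called higher with DESeq2's size factors, with DESeq2, with limma-voom, with the replicate block, with library totals or with the line fitted alone or without SKBR3 untreated replicate 1 or SKBR3 untreated replicate 2 (adjusted p of 0.000602 to 0.0438). In A375, where the genes called lower outnumbered those called higher, SQSTM1 had the largest rise of the 36. MRNIP, listed as C5orf45, lies on the opposite strand, overlaps 20.7% of the exonic bases of SQSTM1, and was called higher in all 5 lines, by 0.69 to 1.42. MRNIP levels were 103 and 93.9 CPM with torkinib against 38.9 and 40.8 untreated in 94T778. In AU565 they were 85.3 and 87.5 CPM with torkinib against 34.7 and 29.5 untreated. The part of MRNIP reads in the SQSTM1 counts was not tested.

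NBR1, a receptor related to SQSTM1 that seeds cargo clusters, stood at 215 and 219 CPM with torkinib against 137 and 150 untreated in 94T778, and 313 and 310 with torkinib against 324 and 316 untreated in A375. NBR1 levels were 252 and 248 CPM with torkinib against 192 and 190 untreated in SKMEL28, and 126 and 134 with torkinib against 60.5 and 62.2 untreated in SKBR3. NBR1 was at 189 and 174 CPM with torkinib against 89.5 and 93.3 untreated in AU565. Torkinib was above untreated in 4 lines and just below it in A375. NBR1 rose by 0.59 ± 0.08 (94T778), 0.39 ± 0.07 (SKMEL28), 1.08 ± 0.09 (SKBR3) and 0.99 ± 0.08 (AU565), with edgeR adjusted p of 1.65e-13 to 3.42e-05, all of which held, and was at -0.04 ± 0.07 in A375. The responses of SQSTM1 and of NBR1 each differed among the 3 lines at 4 µM (edgeR F test, adjusted p = 3.27e-05 and 1.43e-09).

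OPTN, a receptor for damaged mitochondria and bacteria, was at 226 and 195 CPM with torkinib against 174 and 178 untreated in 94T778, and 37.2 and 39 with torkinib against 43 and 32.9 untreated in A375. OPTN levels were 102 and 100 CPM with torkinib against 59.6 and 65.1 untreated in SKMEL28, and 56.6 and 55.5 with torkinib against 22.8 and 21.3 untreated in SKBR3. OPTN was at 14.3 and 11.6 CPM with torkinib against 10.8 and 8.92 untreated in AU565. Its groups overlapped in A375 and were apart in the other lines. OPTN rose by 0.26 ± 0.09 (94T778), 0.69 ± 0.10 (SKMEL28) and 1.35 ± 0.13 (SKBR3), with edgeR adjusted p of 2.93e-11 to 0.0125, and the call was lost in 94T778 without untreated replicate 1 (0.24, adjusted p = 0.0924), untreated replicate 2 (0.27, adjusted p = 0.0541) or torkinib replicate 1 (0.15, adjusted p = 0.27), and also with DESeq2 (adjusted p = 0.0723). In AU565 the value was 0.35 ± 0.18 (adjusted p = 0.0992), which was called higher with the replicate block or with the line fitted alone (adjusted p of 0.0437 to 0.0458). TAX1BP1, a receptor that acts with NBR1 and SQSTM1, rose by 0.28 ± 0.08 (94T778) and 0.37 ± 0.08 (SKBR3), with adjusted p of 0.000145 to 0.00348, and its call was lost in 94T778 without torkinib replicate 1 (0.20, adjusted p = 0.0875). NBR1, OPTN and TAX1BP1 each had the highest of their 5 values in SKBR3, which had the lowest dose.

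CALCOCO2 (NDP52), a receptor in the removal of bacteria and mitochondria, moved both ways. It stood at 163 and 163 CPM with torkinib against 136 and 142 untreated in 94T778, and 103 and 94.4 with torkinib against 177 and 164 untreated in A375. CALCOCO2 levels were 201 and 191 CPM with torkinib against 148 and 140 untreated in SKMEL28, and 34.8 and 34.6 with torkinib against 38.4 and 33.7 untreated in SKBR3. CALCOCO2 was at 51.4 and 45.4 CPM with torkinib against 28.3 and 35.3 untreated in AU565. The groups overlapped in SKBR3, and torkinib was below untreated in A375 and above it in 94T778, SKMEL28 and AU565. CALCOCO2 fell by 0.79 ± 0.09 in A375 and rose by 0.23 ± 0.08 (94T778), 0.45 ± 0.08 (SKMEL28) and 0.61 ± 0.11 (AU565), with edgeR adjusted p of 1.63e-09 to 0.0226. The rise was lost in 94T778 without any 1 of its 4 libraries, with changes of 0.19 to 0.26 and adjusted p of 0.0531 to 0.17, and also without the filter (adjusted p = 0.083) or with DESeq2 (adjusted p = 0.0676). At 4 µM the response in A375 was below that in SKMEL28 and in AU565, with differences of -1.23 ± 0.12 and -1.40 ± 0.14 (adjusted p = 2.65e-10 and 2.98e-10).

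BNIP3L (NIX) is a mitophagy receptor in the outer mitochondrial membrane and a known target of hypoxia signalling. Of the 6 receptors, it alone was called lower on the average of lines. It was at 117 and 112 CPM with torkinib against 193 and 205 untreated in 94T778, and 38.5 and 40.5 with torkinib against 57.8 and 48.8 untreated in A375. BNIP3L levels were 139 and 133 CPM with torkinib against 187 and 191 untreated in SKMEL28, and 9.74 and 10.1 with torkinib against 8.64 and 11 untreated in SKBR3. BNIP3L was at 29.5 and 23.7 CPM with torkinib against 46.8 and 49.8 untreated in AU565. Torkinib libraries were below untreated ones in 4 lines, and the groups overlapped in SKBR3, where the gene was at its lowest level. BNIP3L fell, with changes of -0.80 ± 0.08 (94T778), -0.43 ± 0.11 (A375), -0.48 ± 0.08 (SKMEL28) and -0.87 ± 0.11 (AU565), with edgeR adjusted p of 3.45e-10 to 0.00117. The call was lost in A375 without untreated replicate 1 (-0.31, adjusted p = 0.0536).

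**Figure D4:**
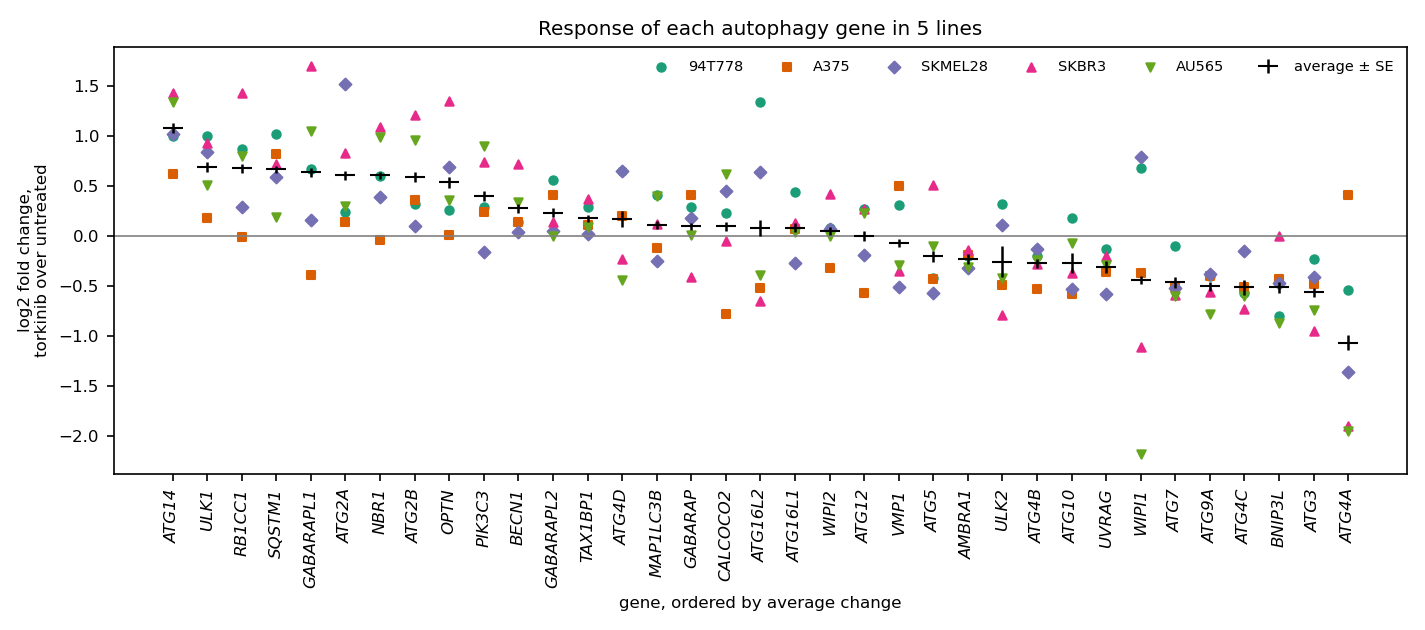
Log2 fold change of each gene, torkinib over untreated, in each of 5 lines (coloured markers) and on the average of lines (black, ± standard error), ordered by the average. MAP1LC3A is left out for want of reads in 94T778; ATG14 has the highest average, ATG4A has the lowest average with A375 above 0, and WIPI1 has the widest spread.

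The response of 30 of the 36 genes differed between the 5 lines by the edgeR F test (83.3%, beside 68.4% of all genes tested), and 25 of these calls held in every alternative. Since dose varies with line, the comparison at 4 µM is the narrower one: there 26 of 36 responses differed among A375, SKMEL28 and AU565 (72.2%, beside 52.5%), and 18 held. By pairs, 15 responses differed between A375 and SKMEL28 (41.7%, beside 28.4%), 4 of them higher in A375 and 11 lower (beside 13.4% and 15.1% of all genes). Between A375 and AU565 20 differed (55.6%, beside 38.0%), 9 higher in A375 and 11 lower (beside 19.3% and 18.7%). Between SKMEL28 and AU565 16 differed (44.4%, beside 34.8%), 7 higher in SKMEL28 and 9 lower (beside 18.9% and 15.9%). These pairs share the samples of each line. The 11 genes with the lower response in A375 than in SKMEL28 were ULK1, ATG2A, WIPI1, WIPI2, ATG4B, ATG12, ATG16L2, GABARAPL1, NBR1, OPTN and CALCOCO2. The 4 with the higher response were PIK3C3, VMP1, ATG4A and GABARAPL2. ATG4B was called by this pair (edgeR adjusted p = 0.0415) but not by the edgeR F test over the 3 lines (adjusted p = 0.0686). Calls by pair were not checked in the alternatives. AMBRA1, UVRAG, ATG4B, ATG4C, ATG10 and MAP1LC3A were the genes without a called difference over the 5 lines, which does not show that their responses were alike.

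A list of 34 other genes of autophagy gave 32 tested genes, of which 15 were called higher and 11 lower on the average of lines (edgeR, beside 28.4% and 28.1% of all genes), with a median change of 0.07. The 6 with the smallest p were RTN3, TP53INP2, BNIP3, FKBP8, FYCO1 and WDR45. The ER-phagy receptor RTN3 fell by 0.59 ± 0.03 on the average of lines. Within lines it fell, with changes of -0.55 ± 0.08 (A375), -1.01 ± 0.08 (SKMEL28), -0.47 ± 0.07 (SKBR3) and -0.81 ± 0.07 (AU565), with edgeR adjusted p of 2.18e-13 to 1.43e-06. FYCO1, an adaptor that moves autophagosomes along microtubules, rose by 0.53 ± 0.04 on the average, and the PI3P-binding WDR45 (WIPI4) by 0.52 ± 0.05 (adjusted p = 2.25e-14 and 4.23e-12). FYCO1 was called in every line but A375, the line in which NBR1 and RB1CC1 had no call either. BNIP3, the paralog of BNIP3L, fell, with changes of -2.31 ± 0.09 (94T778) and -1.36 ± 0.10 (SKMEL28) and rose by 0.54 ± 0.11 in SKBR3, with adjusted p of 1.27e-21 to 9.21e-05, while BNIP3L itself was not called there. The mitophagy receptor FKBP8 fell, with changes of -0.60 ± 0.10 (A375), -1.06 ± 0.10 (SKBR3) and -1.47 ± 0.11 (AU565) and rose by 0.30 ± 0.10 in SKMEL28, with adjusted p of 1.48e-14 to 0.0124, a rise lost in SKMEL28 without untreated replicate 2 (0.16, adjusted p = 0.359) or torkinib replicate 2 (0.27, adjusted p = 0.0823). TP53INP2, which carries LC3 out of the nucleus, fell, with changes of -0.72 ± 0.15 (A375), -1.13 ± 0.07 (SKBR3) and -1.83 ± 0.07 (AU565) and rose by 0.48 ± 0.09 in SKMEL28, with adjusted p of 1.75e-21 to 0.000134.

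The transcription factors known to control these genes changed as well. With all libraries, TFE3 and MITF were called in opposite directions in different lines. FOXO1, FOXO3 and ZKSCAN3 were called only higher, and TFEB only lower. FOXO1 was called higher in A375 and rose by 1.72 ± 0.14 (94T778), 2.31 ± 0.27 (SKMEL28) and 1.57 ± 0.13 (SKBR3), with edgeR adjusted p of 7.12e-13 to 6.15e-09, and was at 0.00 ± 0.11 in AU565. FOXO3 rose in A375, SKBR3 and AU565, by 0.47 to 2.24, with adjusted p of 1.22e-17 to 0.00542. The FOXO3 call was lost in A375 without untreated replicate 2 (0.42, adjusted p = 0.0507) or torkinib replicate 2 (0.33, adjusted p = 0.124). MITF rose by 0.77 ± 0.09 (SKMEL28), 1.01 ± 0.27 (SKBR3) and 1.79 ± 0.19 (AU565) and fell by 0.74 ± 0.15 in A375, with adjusted p of 3.06e-10 to 0.00196. The MITF call was lost in SKBR3 without untreated replicate 1 (0.47, adjusted p = 0.132) or torkinib replicate 2 (0.84, adjusted p = 0.0521). TFE3 rose by 0.34 ± 0.08 in 94T778 and fell, with changes of -1.11 ± 0.09 (A375) and -0.34 ± 0.11 (AU565), with adjusted p of 2.94e-12 to 0.00647. The TFE3 call was lost in AU565 without untreated replicate 1 (-0.26, adjusted p = 0.119). TFEB fell, with changes of -1.38 ± 0.49 (A375) and -1.09 ± 0.20 (SKBR3), with adjusted p of 2.12e-05 to 0.0209. The TFEB call was lost in A375 without untreated replicate 2 (-1.10, adjusted p = 0.156) or torkinib replicate 1 (-1.01, adjusted p = 0.235). ZKSCAN3, a repressor of autophagy genes, was called with all libraries in AU565 only, where it rose by 1.49 ± 0.31 (adjusted p = 8.15e-05). ZKSCAN3 in 94T778 (0.51, adjusted p = 0.0595) was called higher with library totals or with the line fitted alone. FOXO3 in SKMEL28 (0.21) was called higher with the line fitted alone or without either untreated SKBR3 library. TFE3 in SKMEL28 (-0.24) was called lower with library totals. TFEB in 94T778 (0.52) was called higher without torkinib replicate 1 (0.79). In A375, where 14 of the 36 autophagy genes were called lower, TFEB, TFE3 and MITF were called lower, but FOXO1 and FOXO3 were called higher. Of these calls in A375, those of TFEB and FOXO3 did not hold. A relation between these factors and the 36 genes was not tested.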

How the data were processed

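The authors deposited 1 text file for each library, with counts of reads per gene symbol as whole numbers and no scaling. HISAT2 2.04, HTSeq 0.6.1 and limma 3.34.9 are named, without their roles, per the submitters' processing notes, as is hg19 (GRCh37). No annotation or strand setting is named, and RNA was purified with a Qiagen kit per the labels' protocols. The 5 summary lines of each file, which name no gene, were left out. Counts were tested in R 4.3.3 with edgeR 4.0.16 (TMM factors, filterByExpr, quasi-likelihood test, 10 group means in 1 model, Benjamini-Hochberg adjustment over all 16698 genes tested; common BCV 0.0547 with 25.6 prior and 10 residual degrees of freedom). Contrasts were torkinib against untreated in each line and on the average of lines, and F tests of a difference between lines. DESeq2 1.42.0 and limma-voom 3.58.1 were alternatives, and the fit was tested on simulated data. A call is said to hold when no alternative changed it. Depth was 4040023 to 9737903 counted reads per library. The labels do not tie replicates to separate cultures; the p-values may then reflect technical spread alone. Values of every library are given for the members, by rule, for the 4 genes of each role with the smallest p on the average and for every gene called in both directions, and also for ATG9A, chosen after its values were seen. Of the other lists, changes are given for the 6 autophagy genes with the smallest p and for every regulator with a call. The members and lists were chosen with earlier results of these data known. Promoter sequences are from RefSeq (GRCh38.p14) and exon overlaps from GENCODE 29, neither of which is the build of the files.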

Additional observations from a re-analysis of the deposited data

Results flagged for a closer look

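The response to torkinib differed between the 5 lines for 30 of the 36 genes, by the edgeR F test of the difference itself, each at an adjusted p under 0.05. Each value below is the span between the highest and the lowest log2 fold change of the 5 lines; since doses differ between lines, line and dose cannot be told apart in it. Among the genes of initiation and membrane supply the span was 2.97 for WIPI1 (SKMEL28 over AU565), 1.45 for RB1CC1 (SKBR3 over A375), 1.38 for ATG2A (SKMEL28 over A375) and 1.11 for ULK2 (94T778 over SKBR3). Next in that role came spans of 1.11 for ATG2B (SKBR3 over SKMEL28), 1.06 for PIK3C3 (AU565 over SKMEL28), 1.01 for VMP1 (A375 over SKMEL28) and 0.825 for ULK1 (94T778 over A375). The smallest spans there were 0.805 for ATG14 (SKBR3 over A375), 0.739 for WIPI2 (SKBR3 over A375), 0.676 for BECN1 (SKBR3 over SKMEL28) and 0.405 for ATG9A (SKMEL28 over AU565). Among the genes of conjugation the span was 2.36 for ATG4A (A375 over AU565), 2.08 for GABARAPL1 (SKBR3 over A375), 1.99 for ATG16L2 (94T778 over SKBR3) and 1.09 for ATG4D (SKMEL28 over AU565). Next in that role came spans of 1.08 for ATG5 (SKBR3 over SKMEL28), 0.84 for ATG12 (SKBR3 over A375), 0.812 for GABARAP (A375 over SKBR3) and 0.716 for ATG3 (94T778 over SKBR3). The smallest spans there were 0.714 for ATG16L1 (94T778 over SKMEL28), 0.662 for MAP1LC3B (94T778 over SKMEL28), 0.563 for GABARAPL2 (94T778 over AU565) and 0.497 for ATG7 (94T778 over AU565). Among the receptors the span was 1.4 for CALCOCO2 (AU565 over A375), 1.34 for OPTN (SKBR3 over A375), 1.12 for NBR1 (SKBR3 over A375) and 0.868 for BNIP3L (SKBR3 over AU565). The remaining receptors had spans of 0.839 for SQSTM1 (94T778 over AU565) and 0.353 for TAX1BP1 (SKBR3 over SKMEL28). Calls for ULK2, BECN1, ATG9A, ATG7 and TAX1BP1 were lost in 1 alternative or more, with an adjusted p of up to 0.142 for ULK2 by DESeq2, 0.0625 for BECN1 without SKBR3 torkinib replicate 2, 0.139 for ATG9A without AU565 torkinib replicate 2, 0.161 for ATG7 by DESeq2 and 0.116 for TAX1BP1 without SKBR3 torkinib replicate 2. The other 25 were called in every alternative that held all 5 lines.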

How the results depend on the processing

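No call of a single gene was reversed under any alternative. Leaving out 1 library at a time gave 9 to 15 genes lower in A375, against 14 with all libraries, with the 9 without torkinib replicate 1. It gave 7 to 13 genes lower in SKMEL28, against 12, with the 7 without untreated replicate 2. These fits leave an arm with a lone library, which is assumed to vary like the other groups. The other counts of calls stayed within 1.5 times under leaving out a library, DESeq2, DESeq2 size factors, limma-voom, no filter on low counts, library totals without composition factors (chosen after seeing the data), a model of each line alone and the replicate block. Over 36 genes in 5 lines and on the average, 216 values each, DESeq2 ended 18 calls and added 1, no filter ended 10 and added 2, limma-voom ended 1 and added 1, and library totals ended 1 and added 7. Leaving out 1 library ended 104 of 4320 and added 31; 36 further values changed sign with no call on either side. The fit with the replicate block, in which libraries of the same number within a line share a term, called 20 genes higher in 94T778, 15 lower in A375, 14 higher and 11 lower in AU565, and 15 higher and 12 lower on the average, ending 2 calls and adding 3. Same-numbered libraries did not deviate together (correlations of -0.0551 to 0.0676 in the 5 lines), so the numbers were not used as pairs. The smallest library held 4040023 reads. ULK2 had 6 to 280 reads per library and ATG10 25 to 148; whether depth limited the calls of these genes was not tested.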
